A study of Setaria viridis with 32 samples.

Results

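Whole seed heads of the grass *Setaria viridis* (Setaria) were compared between 2 ecotypes, ME034V and A.10, when the head was at 50% seed head emergence (50% SH), the youngest of the 4 stages sampled. The comparison takes 8 of the 32 RNA-seq libraries of the study, the 4 of ME034V and the 4 of A.10 at this stage. Both groups were untreated plants grown under the same chamber conditions and carried no transgene, and each replicate pooled the heads of 4 plants, so the spread between replicates is a spread between pools. A.10 is a much used genetic model, whereas ME034V is easier to transform, and the comparison asks which transcripts differ between them before flowering. The other 24 libraries are heads of both ecotypes at anthesis and at 8 and 16 days after anthesis (DAA), and are used here only to show whether a difference was also present later. A head is a mixture of spikelets, bristles, branches and stem, so that fewer cells of a type and less RNA per cell cannot be told apart. The tissue label was not checked against marker genes, because no table used here pairs the locus identifiers with marker names.

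A seed head at emergence is a sink: it imports sucrose that leaves through the phloem and uses it for growth. SWEETs are sugar transporters that move sucrose or hexoses down their gradient across membranes, SUTs load sucrose together with protons, and hexose transporters (HXTs) take up glucose and fructose. Invertases and sucrose synthases cleave sucrose, UDP-glucose pyrophosphorylases (UDP-glc PPases) interconvert UDP-glucose and glucose 1-phosphate, and aquaporins let water and small solutes pass membranes. The study lists 177 genes of these and related families. The list was taken from the study's own table of expression in this series, so it is not counted here as independent of these samples.

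Total counts were 7894511 to 11131924 in the ME034V libraries and 4557079 to 12386386 in the A.10 libraries. One library stood apart: across all tested loci ME034V replicate 1 had a median correlation of 0.976 with the other ME034V libraries, against 0.987 to 0.988 for replicates 2 to 4 and 0.981 to 0.983 within A.10. Correlations with the other ecotype were 0.906 to 0.916. In A.10 the deep replicates 1 and 2 resembled each other more than the shallow replicates 3 and 4. Results that these libraries change are given with and without them. Levels are CPM, the count of a locus relative to the TMM-scaled total of its library, and fold changes are ME034V over A.10 on the log2 scale, with a standard error (SE) and with an adjusted p from edgeR's quasi-likelihood test. A gene is called higher or lower where that p, which is adjusted over every locus in the test by the Benjamini-Hochberg method, lies under 0.05.

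Of 21960 loci tested, 3787 (17.2%) differed between the ecotypes at 50% SH. In ME034V 1811 were higher (8.25%) and 1976 were lower (9%), and the median log2 fold change over all loci was -0.004. The difference was at least 2-fold at 1898 of them, 982 higher and 916 lower in ME034V, and at least 4-fold at 983, 469 higher and 514 lower. The 4 libraries of one ecotype lay wholly above the 4 of the other at 4665 loci (21.2%). Without ME034V replicate 1 the count was 5901 loci, 2969 higher and 2932 lower, and 96.6% of the 3787 were among them.

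Of the 177 listed genes 157 were expressed enough to be tested, and 12 were higher and 23 lower in ME034V, which is 22.3% called beside 17.2% of all loci. The median log2 fold change of the 157 was -0.10. Of the 35 called genes 14 differed by at least 2-fold, 7 in each direction, and for 31 (88.6%) the libraries of the ecotypes did not overlap, beside 92.5% of all called loci. Without ME034V replicate 1, 21 listed genes were higher and 41 lower, and without the 3 deepest libraries (ME034V replicate 1 and A.10 replicates 1 and 2) 21 were higher and 23 lower. The 20 listed genes not tested had at most 36 counts over the 4 ME034V libraries and at most 34 over the 4 A.10 libraries.

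**Figure D1:**
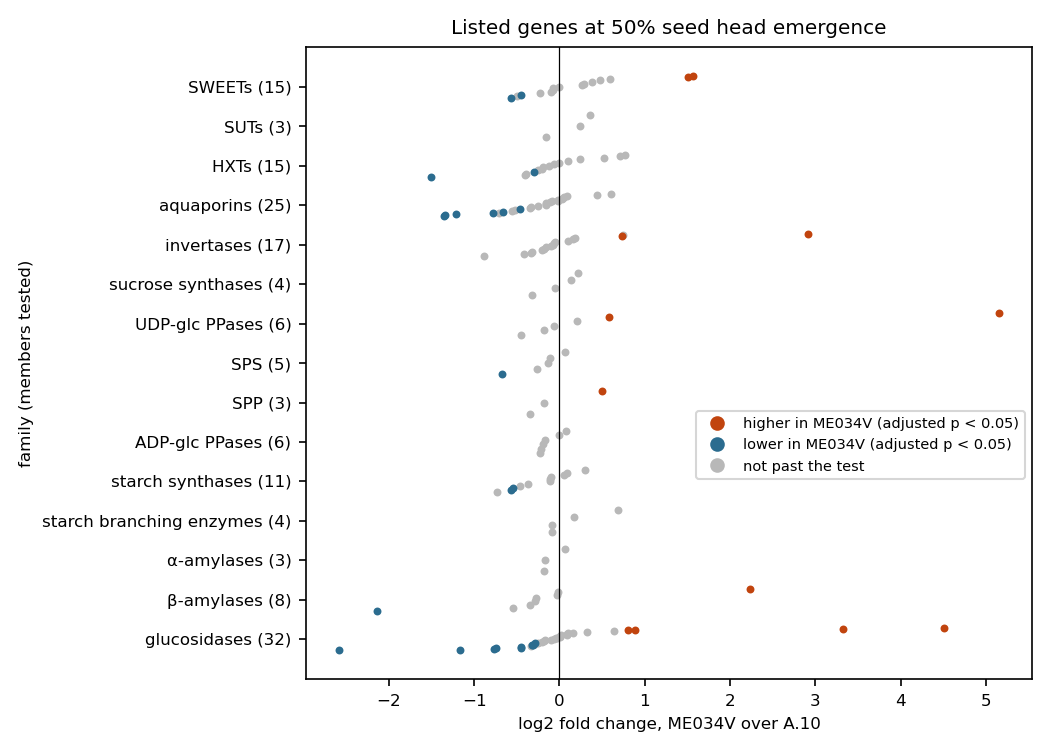
Log2 fold change of each of the 157 tested genes at 50% SH (x axis, ME034V over A.10), in rows by family with the number tested; orange points were higher and blue points lower in ME034V at an adjusted p under 0.05, and grey points did not pass. Most points lie within 1 of 0; the point farthest right is a UDP-glc PPase at 5.16 and the point farthest left a glucosidase at -2.58.

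Of 15 tested SWEETs 2 were higher and 2 were lower in ME034V, which is 26.7% called beside 17.2% of all loci. The 2 that were higher, *SvSWEET5* and *SvSWEET6*, had low levels in A.10. *SvSWEET6* (Sevir.5G225300, chromosome 5 from 27337732 to 27340948 in v2.1 coordinates) had 15.6, 21.6, 23.0 and 15.5 CPM in the ME034V libraries, against 6.87, 6.78, 4.87 and 7.55 CPM in the A.10 libraries. Every ME034V library was above every A.10 library, and the log2 fold change was 1.51 (adjusted p = 7.2e-05 by edgeR, SE 0.18). *SvSWEET5* (Sevir.3G127400, chromosome 3 from 8464607 to 8466183) had 4.96, 7.13, 5.24 and 5.90 CPM in ME034V, against 2.37, 2.82, 0.70 and 0.94 CPM in A.10. Here too the groups did not overlap, with a log2 fold change of 1.56 (adjusted p = 0.0038 by edgeR, SE 0.31). Both genes were also higher in ME034V at each of the later stages. *SvSWEET5* did not pass in the joint fit of all 32 libraries (1.54, edgeR adjusted p = 0.12). Its log2 fold change ranged from 1.39 to 2.87 over 17 alternative settings.

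The 2 SWEETs that were lower in ME034V differed by less. *SvSWEET4a* (Sevir.1G134500, chromosome 1 from 13453004 to 13455752) is the SWEET that the study examined as a transporter of glucose and sucrose. It had 38.5, 47.5, 56.6 and 54.2 CPM in ME034V, against 77.2, 67.1, 77.3 and 70.01 CPM in A.10. The groups did not overlap, and the log2 fold change was -0.57 (adjusted p = 0.0041 by edgeR, SE 0.11). It was -0.45 without ME034V replicate 1, the ME034V library with the least *SvSWEET4a* (edgeR adjusted p = 0.0012), and did not pass in the joint fit (-0.55, edgeR adjusted p = 0.079). *SvSWEET2b* (Sevir.5G287700) had 27.4, 31.6, 41.4 and 36.9 CPM in ME034V, against 44.7, 46.8, 49.2 and 47.0 CPM in A.10, a log2 fold change of -0.45 (adjusted p = 0.019 by edgeR, SE 0.12). That call was lost without A.10 replicate 2 (-0.44, edgeR adjusted p = 0.056), without A.10 replicate 3 (-0.43, edgeR adjusted p = 0.055), without ME034V replicate 2 (-0.40, edgeR adjusted p = 0.073) and in the joint fit (-0.43, edgeR adjusted p = 0.11).

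The other 11 tested SWEETs did not pass. *SvSWEET4c* (Sevir.1G134200), the homologue of *SvSWEET4a* on the same chromosome, had 39.6, 60.9, 65.9 and 63.3 CPM in ME034V, against 45.4, 42.8, 46.7 and 40.8 CPM in A.10. ME034V replicate 1 lay below all A.10 libraries and the other 3 ME034V libraries lay above all of them. The log2 fold change was 0.38 (adjusted p = 0.087 by edgeR, SE 0.14), and without ME034V replicate 1 it was 0.54 and passed (edgeR adjusted p = 8.9e-05). *SvSWEET15* (Sevir.1G174400) had 58.1, 94.4, 77.7 and 55.1 CPM in ME034V, against 59.6, 53.7, 41.3 and 31.5 CPM in A.10. Its log2 fold change was 0.59 (adjusted p = 0.070 by edgeR, SE 0.20). It passed without A.10 replicate 1 (0.75, edgeR adjusted p = 0.046), without ME034V replicate 1 (0.68, edgeR adjusted p = 0.021) and without ME034V replicate 4 (0.70, edgeR adjusted p = 0.049). In all, *SvSWEET15* passed in 8 of 17 alternative settings, and its log2 fold change ranged from 0.44 to 1.09 over the 17. For *SvSWEET13a* (Sevir.3G333000) the ecotypes overlapped throughout, with 12.7 to 22.7 CPM in ME034V and 12.3 to 23.1 CPM in A.10, and the 95% interval of the log2 difference was -0.42 to 0.42. *SvSWEET13b* had 11.3 to 19.3 CPM in ME034V and 9.05 to 16.9 CPM in A.10 (log2 fold change 0.29, adjusted p = 0.39 by edgeR, SE 0.20). Per length of locus, *SvSWEET1a* had the highest level of the 17 SWEETs in both ecotypes, 54.4 FPKM in ME034V and 63.6 FPKM in A.10, with a log2 fold change of -0.22 (adjusted p = 0.082 by edgeR, SE 0.08). Reads that matched homologues equally well were not counted, so the levels of near-identical SWEETs may be too low in either ecotype. *SvSWEET14a* and *SvSWEET12* had too few counts to be tested.

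**Figure D2:**
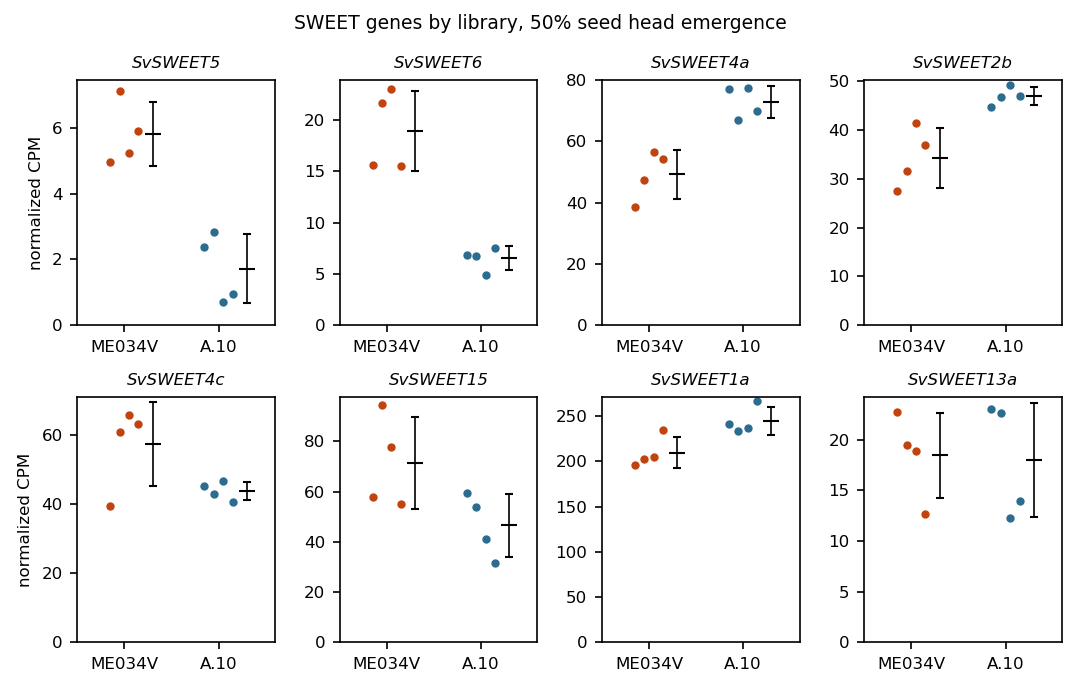
Normalized CPM (y axis, from 0) of 8 SWEET genes in each library at 50% SH, with ME034V left (orange) and A.10 right (blue); points are replicates 1 to 4 from left to right, and the black bars beside them are the mean ± SD (n = 4). The groups are apart for *SvSWEET5*, *SvSWEET6*, *SvSWEET4a* and *SvSWEET2b*, and overlap for the other 4 genes.

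None of the 3 tested SUTs passed with edgeR or DESeq2, where 17.2% of all loci passed with edgeR, and 2 were higher at an unadjusted p under 0.05. *SvSUT1*, a proton-coupled sucrose transporter, had 53.7, 62.1, 65.9 and 59.9 CPM in ME034V, against 78.3, 66.9, 56.9 and 65.9 CPM in A.10, and the 95% interval of the log2 difference was -0.36 to 0.04. For *SvSUT4* the log2 fold change was 0.24 (adjusted p = 0.059 by edgeR, SE 0.08) and for *SvSUT5* it was 0.36 (adjusted p = 0.14 by edgeR, SE 0.15). Of 15 tested HXTs 2 were lower in ME034V and none were higher, which is 13.3% called beside 17.2% of all loci. Higher were 3 at an unadjusted p under 0.05 with edgeR, and 2 with DESeq2. *Sevir.9G398400* had 8.10, 5.59, 4.05 and 5.04 CPM in ME034V, against 14.96, 17.9, 17.9 and 14.9 CPM in A.10. The groups lay far apart, at a log2 fold change of -1.50 (adjusted p = 1.4e-04 by edgeR, SE 0.19), and the gene was lower in ME034V at every later stage too. *Sevir.5G089300*, the HXT with the highest FPKM in both ecotypes, had 73.8 to 96.9 CPM in ME034V and 93.4 to 108 CPM in A.10 (log2 fold change -0.30, adjusted p = 0.043 by edgeR, SE 0.09). That call did not hold without any 1 of A.10 replicates 1, 2 and 3 or of ME034V replicates 2, 3 and 4, with log2 fold changes of -0.30 to -0.24, nor in thinned counts (-0.23, edgeR adjusted p = 0.16). *Sevir.1G121800*, at 96.9 ± 7.64 CPM in ME034V and 101 ± 7.23 CPM in A.10 (SD, n = 4 each), did not pass (-0.07, adjusted p = 0.66 by edgeR, SE 0.08).

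Aquaporins were lower in ME034V where they passed: of 25 tested, 6 were lower and none higher, beside 9% and 8.25% of all loci. DESeq2 gave the same counts, and at an unadjusted p under 0.05 edgeR had 10 lower and again none higher. By subfamily these were 3 of 8 plasma membrane intrinsic proteins (PIPs), 1 of 8 tonoplast intrinsic proteins (TIPs), 2 of 6 nodulin 26-like intrinsic proteins (NIPs) and none of 3 small basic intrinsic proteins (SIPs). The library that stood apart moved with this family. In ME034V replicate 1 the tested aquaporins summed to 2983 CPM, against 4669 to 4952 CPM in the other ME034V libraries and 4480 to 4941 CPM in A.10, and 22 of the 25 had their lowest ME034V value there. Its part in the calls is shown by leaving it out: then 6 aquaporins were lower and 1, *SvTIP2;4*, was higher, and without the 3 deepest libraries 4 were lower and 1 was higher.

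The PIPs carry water through the plasma membrane. *SvPIP2;7* (Sevir.2G128300, chromosome 2 from 13216004 to 13217650) had 18.1, 34.0, 29.9 and 32.4 CPM in ME034V, against 71.8, 67.2, 69.9 and 82.5 CPM in A.10. The groups lay far apart without overlap, and the log2 fold change was -1.35 (adjusted p = 9.1e-05 by edgeR, SE 0.16), or -1.16 without ME034V replicate 1. *SvPIP1;5* (Sevir.1G378900) had 7.84, 11.2, 8.46 and 9.10 CPM in ME034V, against 26.1, 20.7, 19.3 and 17.6 CPM in A.10, which do not overlap (-1.21, adjusted p = 1.5e-04 by edgeR, SE 0.16). *SvPIP2;4* (Sevir.1G246800) had 7.05, 10.4, 13.8 and 14.8 CPM in ME034V, against 18.6, 22.2, 16.9 and 20.2 CPM in A.10 (-0.78, adjusted p = 0.017 by edgeR, SE 0.20). The call of *SvPIP2;4* was lost without A.10 replicate 2 (-0.70, edgeR adjusted p = 0.071), without ME034V replicate 2 (-0.73, edgeR adjusted p = 0.065), without the 3 deepest libraries (-0.51, edgeR adjusted p = 0.060) and in the joint fit (-0.76, edgeR adjusted p = 0.061). The PIPs of highest level did not pass. *SvPIP1;2*, first of the 28 aquaporins by FPKM in both ecotypes, had 1127, 1564, 1595 and 1657 CPM in ME034V, against 1509, 1389, 1443 and 1445 CPM in A.10, and the 95% interval of the log2 difference was -0.20 to 0.27. *SvPIP2;1* and *SvPIP1;1* had 554 and 193 CPM in ME034V replicate 1, and 900 to 937 and 346 to 360 CPM in the other ME034V libraries, against 842 to 968 and 374 to 415 CPM in A.10.

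TIPs lie in the vacuolar membrane, and NIPs carry small solutes such as silicic or boric acid in other plants. *SvTIP4;3* (Sevir.5G007100, chromosome 5 from 541669 to 545251) had 3.05, 4.17, 7.62 and 4.92 CPM in ME034V, against 10.7, 12.99, 13.5 and 12.5 CPM in A.10 (-1.34, adjusted p = 0.0015 by edgeR, SE 0.23). Its neighbour *SvTIP4;1* (chromosome 5 from 548624 to 550555) had 61.4, 105, 103 and 112 CPM in ME034V, against 102, 102, 97.9 and 121 CPM in A.10, and did not pass (-0.15, adjusted p = 0.60 by edgeR, SE 0.16). Beside them *SvTIP4;4* (chromosome 5 from 557299 to 558985) did not pass either (-0.33, adjusted p = 0.48 by edgeR, SE 0.27). So in this stretch of the chromosome *SvTIP4;3* differed at this stage, and for *SvTIP4;1* and *SvTIP4;4* no difference was detected. *SvTIP2;4* had 53.3, 105, 107 and 118 CPM in ME034V, against 73.4, 60.5, 63.8 and 83.4 CPM in A.10. The log2 fold change was 0.44 (adjusted p = 0.18 by edgeR, SE 0.20), and without ME034V replicate 1, the lowest of all 8, it was 0.66 and passed (edgeR adjusted p = 2.4e-04). *SvTIP1;1* had 306, 727, 825 and 883 CPM in ME034V, against 683, 578, 686 and 821 CPM in A.10, with a log2 fold change of -0.01 that was 0.25 without ME034V replicate 1. *SvTIP3;1* and *SvTIP3;3* had at most 0.36 CPM in any ME034V library and at most 1.16 CPM in any A.10 library, and were not tested. *SvNIP3;1* had 56.1, 76.0, 77.5 and 70.2 CPM in ME034V, against 111, 106, 120 and 107 CPM in A.10. These groups do not overlap (-0.67, adjusted p = 5.3e-04 by edgeR, SE 0.10). *SvNIP2;2* had 34.4 to 50.9 CPM in ME034V and 47.3 to 69.5 CPM in A.10 (-0.46, adjusted p = 0.040 by edgeR, SE 0.14), and lost its call without any 1 of 6 libraries, A.10 replicates 1, 3 and 4 and ME034V replicates 1, 2 and 4 (-0.50 to -0.34), as well as without the 3 deepest libraries (-0.34, edgeR adjusted p = 0.053) and with a stricter filter (-0.45, edgeR adjusted p = 0.066). *SvNIP1;1*, with the highest CPM of the NIPs, had 322, 444, 449 and 462 CPM in ME034V, against 532, 511, 469 and 490 CPM in A.10 (-0.26, adjusted p = 0.15 by edgeR, SE 0.11).

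**Figure D3:**
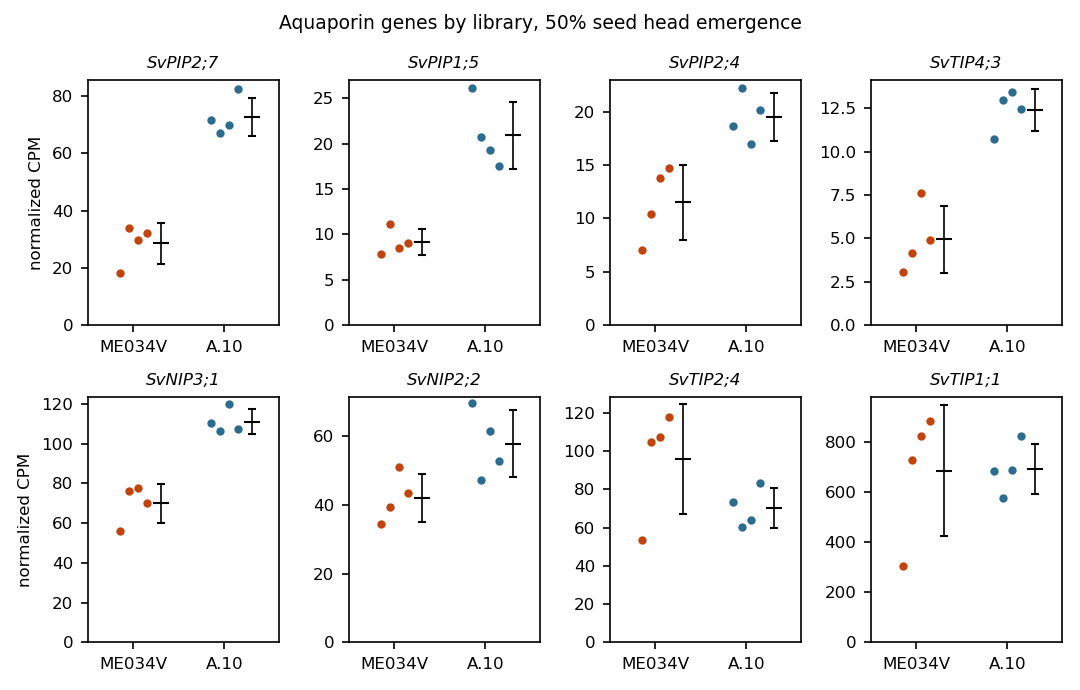
Normalized CPM (y axis, from 0) of 8 aquaporin genes in each library at 50% SH, ME034V left (orange) and A.10 right (blue); points are replicates 1 to 4 from left to right and black bars the mean ± SD (n = 4). The first 5 genes do not overlap between ecotypes, and in the panels of *SvTIP2;4* and *SvTIP1;1* ME034V replicate 1, at 53.3 and 306 CPM, lies below all 7 other libraries.

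The ecotype difference of several aquaporins was not the same later on. At anthesis 1 of 26 tested aquaporins was called higher in ME034V and 8 lower, where 16% of all loci were called. Of 28 tested at 8 DAA 9 were higher and 3 lower (20.9% of all loci called). Of 27 tested at 16 DAA 11 were higher and 3 lower (19.6% of all loci called). For each gene the difference at 50% SH was tested against the mean difference of the 3 later stages in one fit of all 32 libraries, where 994 of 25264 loci (3.93%) passed. Among the listed genes 11 passed, and 9 of them were aquaporins. For 8 of the 9 the difference was more negative at 50% SH than later. *SvNIP4;1*, for which no difference was detected at 50% SH (-0.09, SE 0.18), had log2 fold changes of 1.26 at anthesis, 2.17 at 8 DAA and 3.38 at 16 DAA. That at 8 DAA did not pass (adjusted p = 0.11 by edgeR, SE 0.88). The difference between stages was -2.33 (adjusted p = 0.0040 by edgeR, SE 0.48). In the scale of all 32 libraries its means were 20.0, 22.3, 1.56 and 1.90 CPM over the 4 stages in ME034V, against 20.7, 9.25, 0.30 and 0.16 CPM in A.10, so that the transcript became scarce in both ecotypes. The A.10 means at 8 and 16 DAA had SDs of 0.51 and 0.11 CPM, so the late folds rest on very few counts. *SvPIP2;7* was lower in ME034V at 50% SH and at anthesis (-0.43, adjusted p = 0.0083 by edgeR, SE 0.09), had 0.77 at 8 DAA (adjusted p = 0.081 by edgeR, SE 0.28) and was higher at 16 DAA (0.76, adjusted p = 0.026 by edgeR, SE 0.20). Its means over the 4 stages were 26.9, 22.6, 14.2 and 7.42 CPM in ME034V, against 67.7, 30.3, 8.35 and 4.38 CPM in A.10, and the difference between stages was -1.69 (adjusted p = 2.3e-05 by edgeR, SE 0.23).

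For *SvTIP4;3* and *SvTIP4;1* on chromosome 5 the difference shifted in opposite directions after this stage. For *SvTIP4;4* beside them the difference between stages was -0.18 and did not pass (adjusted p = 0.84 by edgeR, SE 0.29). *SvTIP4;3* was lower in ME034V at every stage, by -1.34 at 50% SH, -1.99 at anthesis, -2.67 at 8 DAA and -4.12 at 16 DAA, and its difference between stages was 1.62 (adjusted p = 3.3e-04 by edgeR, SE 0.27). For *SvTIP4;1* the log2 fold changes were -0.15, -0.05, 1.09 and 2.54 over the same stages, of which that at 16 DAA passed. Its difference between stages was -1.30 (adjusted p = 0.039 by edgeR, SE 0.36). The late folds of both genes rest on low levels. *SvTIP4;1* averaged 2.83 (SD 2.50) and 1.49 (SD 0.53) CPM in A.10 at 8 and 16 DAA, against 6.19 and 9.01 CPM in ME034V. *SvTIP4;3* averaged 1.89 and 2.33 CPM in ME034V at these stages, against 12.4 and 40.9 CPM in A.10. *SvTIP2;1*, *SvPIP1;5*, *SvPIP2;1*, *SvPIP1;1* and *SvNIP3;1* had differences between stages of -1.70, -0.91, -0.74, -0.70 and -0.67. Against anthesis alone 30 loci and no aquaporin passed with edgeR, and 4 aquaporins had an unadjusted p under 0.05. Without the 3 deepest libraries 3 aquaporins passed, and without any single library of this stage 6 to 9 did. The 2 other listed genes were the UDP-glc PPase *Sevir.1G112300* (-2.11, adjusted p = 0.0087 by edgeR, SE 0.48) and the glucosidase *Sevir.4G181700* (-2.14, adjusted p = 1.3e-04 by edgeR, SE 0.33). *Sevir.1G112300* averaged only 0.34 CPM (SD 0.34) in A.10 at 16 DAA, against 2.69 CPM in ME034V.

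**Figure D4:**
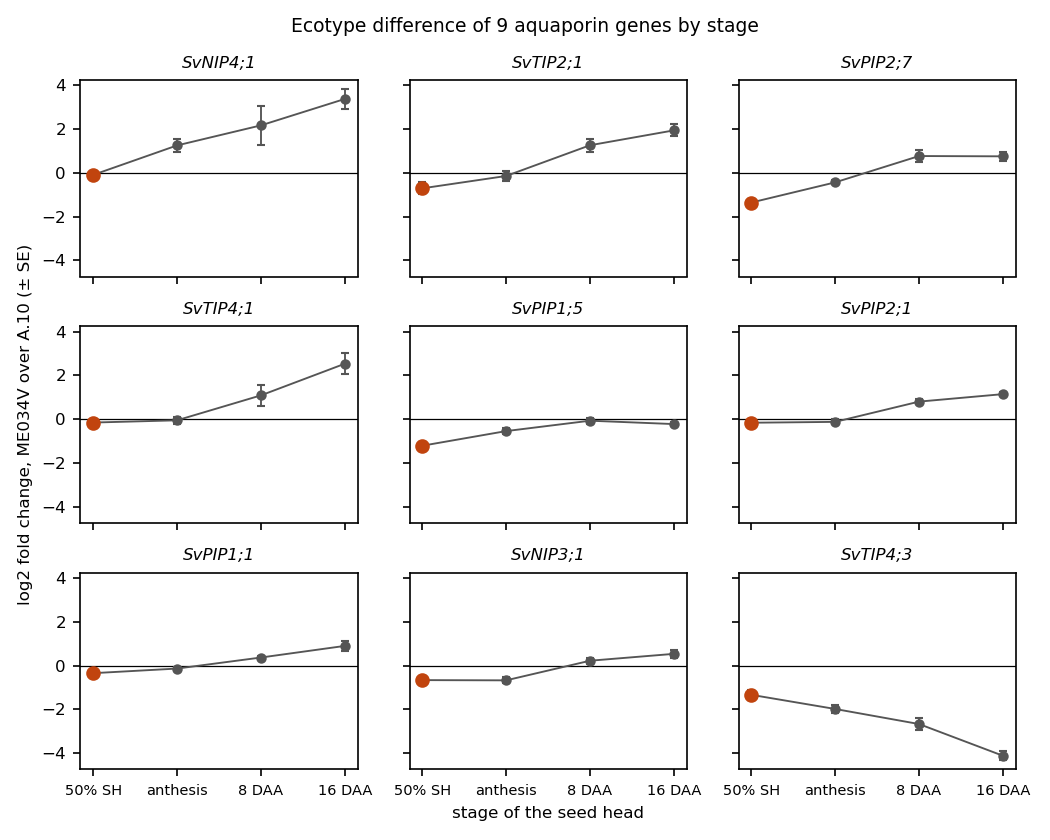
Log2 fold change of ME034V over A.10 (y axis, ± SE) at the 4 stages (x axis) for the 9 aquaporin genes whose difference at 50% SH (orange point) differed from the mean of the later stages; each stage was fitted on its own 8 libraries. In 8 panels the later points lie above the first on average, as in *SvNIP4;1* where they reach 3.38, and in *SvTIP4;3* they go down to -4.12.

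The largest difference among all listed genes was that of a UDP-glc PPase. *Sevir.7G323500* (chromosome 7 from 34260535 to 34266847) had 75.6, 65.0, 63.0 and 62.2 CPM in ME034V, against 1.963, 0.75, 1.63 and 3.77 CPM in A.10. The transcript was 35.6-fold higher in ME034V, with a log2 fold change of 5.16 (adjusted p = 3.1e-08 by edgeR, SE 0.25), and it was higher at each later stage as well, by 4.85, 5.66 and 4.64. In ME034V it ranked 4 of the 6 UDP-glc PPases by FPKM (10.5 FPKM), and in A.10 it was the lowest of them (0.32 FPKM). *Sevir.4G254800* was also higher in ME034V, with 158, 122, 118 and 120 CPM, against 85.4, 94.5, 82.9 and 83.4 CPM in A.10 (0.58, adjusted p = 0.0014 by edgeR, SE 0.10), and at each later stage. The UDP-glc PPase of highest level, *Sevir.2G312500*, had 357 to 478 CPM in ME034V and 409 to 497 CPM in A.10 and did not pass (-0.18, adjusted p = 0.29 by edgeR, SE 0.10).

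Of the enzymes that cleave sucrose, 2 of 17 tested invertases were higher in ME034V (11.8% called, beside 17.2% of all loci) and none of 4 sucrose synthases passed with edgeR or DESeq2 (1 had an unadjusted p under 0.05). *Sevir.7G099400*, a cell wall invertase, which splits sucrose outside the cell, had 2.26, 0.88, 5.002 and 2.46 CPM in ME034V, against 0.41, 0.38, 0.46 and 0 CPM in A.10. The values are low but do not overlap, at a log2 fold change of 2.91 (adjusted p = 0.0056 by edgeR, SE 0.62). The neutral invertase *Sevir.1G101900*, an enzyme of the cell interior, had 14.3, 15.4, 12.6 and 11.4 CPM in ME034V, against 8.01, 9.79, 6.27 and 7.55 CPM in A.10 (0.73, adjusted p = 0.0058 by edgeR, SE 0.16). The neutral invertase of highest CPM, *Sevir.1G193400*, had 98.5 to 117 CPM in ME034V and 118 to 123 CPM in A.10 (-0.20, adjusted p = 0.080 by edgeR, SE 0.07). For *Sevir.1G004700*, listed as a vacuolar invertase, the ecotypes overlapped, with 52.5 to 89.3 CPM in ME034V and 60.6 to 85.0 CPM in A.10. From protein modelling the study proposes that this gene probably encodes a fructosyltransferase of fructan synthesis instead. The cell wall invertase *Sevir.5G471800* had 18.0 to 23.5 CPM in ME034V and 16.3 to 18.9 CPM in A.10. *Sevir.9G377500*, the sucrose synthase of highest level, had 1293 to 1531 CPM in ME034V and 1157 to 1476 CPM in A.10, and the 95% interval of its log2 difference was -0.07 to 0.35.

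Sucrose is made by sucrose phosphate synthase (SPS) and sucrose phosphate phosphatase (SPP). Of 5 tested SPS genes 1 was lower in ME034V (20% called), and of 3 tested SPP genes 1 was higher (33.3% called). The share over all loci was 17.2%, and families this small do not set the 2 steps apart. The SPP *Sevir.2G396500* had 62.5, 48.5, 47.0 and 44.5 CPM in ME034V, against 39.3, 37.3, 34.4 and 31.7 CPM in A.10 (0.50, adjusted p = 0.0098 by edgeR, SE 0.12). The SPS *Sevir.4G301100*, the lowest of 5 by FPKM, had 9.32, 12.7, 10.6 and 13.4 CPM in ME034V, against 16.8, 17.6, 16.5 and 22.6 CPM in A.10 (-0.67, adjusted p = 0.0078 by edgeR, SE 0.15), and thinning to equal depth ended this call (-0.60, edgeR adjusted p = 0.076). *Sevir.6G120400*, the SPS of highest level, had 137 to 181 CPM in ME034V and 165 to 173 CPM in A.10 and did not pass (-0.11, adjusted p = 0.45 by edgeR, SE 0.09).

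Starch enzymes are given by family. None of 6 ADP-glucose pyrophosphorylases, which make the precursor of starch, none of 4 starch branching enzymes and none of 3 α-amylases passed with edgeR, beside 17.2% of all loci. At an unadjusted p under 0.05 there were 2, 1 and 0 of them, and DESeq2 called 1 starch branching enzyme. Of 11 starch synthases 2 were lower in ME034V, which is 18.2% called beside 17.2% of all loci. *Sevir.1G324500* had 22.0, 26.0, 27.6 and 29.9 CPM in ME034V, against 40.3, 38.6, 34.1 and 43.2 CPM in A.10 (-0.57, adjusted p = 0.0030 by edgeR, SE 0.11). *Sevir.1G365600* had 22.2 to 31.4 CPM in ME034V and 29.5 to 42.9 CPM in A.10 (-0.55, adjusted p = 0.014 by edgeR, SE 0.14), which was lost without A.10 replicate 1 (-0.45, edgeR adjusted p = 0.067) and without ME034V replicate 3 (-0.48, edgeR adjusted p = 0.051). The members of highest CPM of these families overlapped between ecotypes: the starch synthase *Sevir.2G118600* had 115 to 180 and 126 to 153 CPM in ME034V and A.10, the starch branching enzyme *Sevir.7G096400* 249 to 312 and 272 to 290 CPM, the ADP-glucose pyrophosphorylase *Sevir.6G130500* 146 to 253 and 195 to 238 CPM, and the α-amylase *Sevir.5G298000* 98.4 ± 15.4 and 111 ± 8.72 CPM (mean ± SD, n = 4). Among 8 tested β-amylases, which release maltose from starch, 1 was higher and 1 lower (25% called), both at low level. *Sevir.7G078800* had 0.35, 0.88, 0.71 and 0.86 CPM in ME034V, against 2.86, 3.11, 3.02 and 3.21 CPM in A.10 (-2.13, adjusted p = 2.6e-04 by edgeR, SE 0.29). *Sevir.9G229200* had 3.22, 1.21, 2.14 and 1.35 CPM in ME034V, against 0.49, 0.66, 0 and 0.19 CPM in A.10 (2.23, adjusted p = 0.0095 by edgeR, SE 0.51), and did not pass in the joint fit (2.23, edgeR adjusted p = 0.25). The β-amylase of highest CPM, *Sevir.5G004100*, had 36.9 to 43.4 CPM in ME034V and 39.4 to 45.5 CPM in A.10.

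Glucosidases, which release glucose from sugars and glucosides, held the most called members: 9 of 32 tested were lower in ME034V and 4 were higher, 40.6% in all beside 17.2% of all loci. *Sevir.4G181700* (chromosome 4 from 14601553 to 14605673) had 7.40, 12.4, 10.6 and 8.12 CPM in ME034V, against 48.3, 44.8, 55.2 and 84.0 CPM in A.10. It was 5.998-fold lower in ME034V (log2 fold change -2.58, adjusted p = 4.4e-06 by edgeR, SE 0.22), and the fold was smaller at anthesis (-1.06, edgeR adjusted p = 7.1e-04). *Sevir.2G265100*, the glucosidase of highest CPM, had 291, 413, 484 and 414 CPM in ME034V, against 662, 572, 638 and 814 CPM in A.10. These groups do not overlap (-0.74, adjusted p = 0.0040 by edgeR, SE 0.15), but the joint fit did not call it (-0.73, edgeR adjusted p = 0.16), and at 16 DAA the gene was higher in ME034V (1.64, edgeR adjusted p = 0.0023). *Sevir.2G281200* and *Sevir.4G175400* were lower by -0.77 and -1.17.

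A group of 3 glucosidases lies close together on chromosome 7, from 23815630 to 23850051, and all 3 were lower in ME034V. *Sevir.7G173000*, *Sevir.7G173400* and *Sevir.7G173500* averaged 31.1, 37.4 and 12.97 CPM in ME034V, against 38.8, 50.8 and 17.8 CPM in A.10, with log2 fold changes of -0.33, -0.45 and -0.45. Their calls were fragile: that of *Sevir.7G173000* was lost without any 1 of 5 libraries (-0.33 to -0.26), without the 3 deepest libraries (-0.30) and in thinned counts (-0.31), that of *Sevir.7G173500* without A.10 replicate 2 (-0.45, edgeR adjusted p = 0.052) or A.10 replicate 4 (-0.42, edgeR adjusted p = 0.055), without the 3 deepest libraries (-0.49) and in thinned counts (-0.37), and that of *Sevir.7G173400* without the 3 deepest libraries (-0.27, edgeR adjusted p = 0.10) and in the joint fit (-0.43, edgeR adjusted p = 0.074). Of the 2 remaining, *Sevir.9G124100* (-0.31, adjusted p = 0.015 by edgeR, SE 0.08) lost its call without A.10 replicate 3 or ME034V replicate 3 (-0.28 and -0.29) and in the joint fit (-0.29), and *Sevir.2G427300* (-0.29, adjusted p = 0.047 by edgeR, SE 0.09) without any 1 library other than ME034V replicate 1 (-0.30 to -0.24), in the joint fit (-0.27) and without a filter (-0.29). *Sevir.9G124300* had 275 to 329 CPM in ME034V and 324 to 347 CPM in A.10 and did not pass (-0.20, adjusted p = 0.11 by edgeR, SE 0.08).

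The 4 glucosidases that were higher in ME034V include 2 with hardly any transcript in A.10. *Sevir.3G289100* had 6.18, 2.19, 7.15 and 2.21 CPM in ME034V, against 0.16, 0.38, 0 and 0 CPM in A.10 (4.51, adjusted p = 4.9e-04 by edgeR, SE 0.67). *Sevir.9G090200* had 10.5, 10.8, 24.5 and 10.7 CPM in ME034V, against 1.06, 3.01, 0 and 0.38 CPM in A.10 (3.33, adjusted p = 6.6e-04 by edgeR, SE 0.52). *Sevir.9G496500* and *Sevir.2G294700* were higher by 0.80 and 0.89, and the call of *Sevir.2G294700* was lost in counts thinned to equal depth (0.65, edgeR adjusted p = 0.095) and without the 3 deepest libraries (0.50, edgeR adjusted p = 0.19).

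The study used 2 reference genes for qPCR, and one of them differed between the ecotypes at this stage. Its qPCR of SWEETs compared leaf, stem and seed head, scaled to the geometric mean of both genes. No qPCR between ecotypes is described, so the difference below does not bear on that comparison of tissues. The gene labelled *TF* (Sevir.5G315700, chromosome 5 from 35915127 to 35919814) had 58.9, 42.8, 33.0 and 50.4 CPM in ME034V, against 84.7, 89.2, 93.8 and 89.8 CPM in A.10. The groups do not overlap, and the log2 fold change was -0.94 (adjusted p = 5.1e-04 by edgeR, SE 0.14). *EF1A* (Sevir.3G271600), an elongation factor of translation, had 111, 110, 105 and 107 CPM in ME034V, against 120, 121, 123 and 133 CPM in A.10, all higher than any ME034V value, and did not pass (-0.20, adjusted p = 0.056 by edgeR, SE 0.07).

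The genes called at 50% SH were often called the same way at the later stages, which are separate libraries. Of those higher in ME034V and tested at anthesis, 1011 of 1770 (57.1%) were also higher there, 882 of 1619 (54.5%) at 8 DAA and 771 of 1584 (48.7%) at 16 DAA. Of those lower in ME034V, 1152 of 1898 (60.7%) were also lower at anthesis, 899 of 1808 (49.7%) at 8 DAA and 763 of 1781 (42.8%) at 16 DAA. As a share of the later lists, these shared genes were 67.3% of the loci higher at anthesis that were tested at both stages, 42.4% at 8 DAA and 39.6% at 16 DAA, and 65.0%, 48.5% and 44.8% of those lower. Calls in the opposite direction numbered 4 at anthesis, 79 at 8 DAA and 130 at 16 DAA. Called at these stages were 16%, 20.9% and 19.6% of the loci tested. Of 3289 loci called at 50% SH and tested at all 4 stages, 530 were higher and 598 lower in ME034V at all of them, and 835 (25.4%) were called at none of the later stages.

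Most of the 12 listed genes that were higher in ME034V were called higher at every stage. Most of the 23 that were lower were not called lower at every stage. A gene not called at a stage may still differ there, and the difference between the lists was not tested. Called higher at all 4 stages were 8 of the 12: *SvSWEET5*, *SvSWEET6*, *Sevir.7G323500*, *Sevir.4G254800*, *Sevir.2G396500*, *Sevir.3G289100*, *Sevir.7G099400* and *Sevir.9G229200*. Called lower at all 4 stages were 3 of the 23: *SvTIP4;3*, *SvNIP2;2* and *Sevir.9G398400*. Of the 21 lower genes tested at 16 DAA, 5 were called lower there and 3, *SvPIP2;7*, *Sevir.2G265100* and *Sevir.2G281200*, were called higher.

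Heads called 50% SH need not be at the same point of development in both ecotypes, and ecotype and timing cannot be told apart by the design. On the first principal component of all 32 libraries (55.7% of the variance), which orders the stages, the ME034V heads lay at -142 to -133 and the A.10 heads at -135 to -129, apart from the heads at anthesis (-100 to -87.3 in ME034V, -93.0 to -73.7 in A.10). The difference was -6.67 (exact two-sided permutation test, p = 0.057, adjusted 0.095 over 5 measures). On components 2 and 3 (19.1% and 9.19%) ME034V lay at 12.99 to 21.3 and 69.4 to 79.9. A.10 lay at -98.3 to -90.2 and 15.3 to 25.6, with no overlap. The exact two-sided permutation test gave p = 0.029 for each, the smallest that 4 against 4 allow, adjusted 0.071. The components were computed with these libraries included, and component 2 set the ecotypes apart at every stage. The test on components 2 and 3 is therefore not separate evidence of a difference. At equal depth 25817 to 26839 loci were detected in the ME034V libraries and 25991 to 26229 in the A.10 libraries (exact two-sided permutation test, p = 0.34).

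The largest differences were at loci with 0 or 1 count in one of the ecotypes. *Sevir.1G367600* (chromosome 1 from 40632196 to 40633588) had 33.3, 59.9, 51.1 and 54.2 CPM in ME034V and no count in any A.10 library, so it was at least 548-fold higher in ME034V, taking 3 counts over the A.10 group as the floor. *Sevir.2G161600* (chromosome 2 from 19666191 to 19675190) had 146, 117, 130 and 112 CPM in ME034V, 4745 counts in all, against 1 count in A.10, in replicate 3. In later heads of A.10 it averaged 0.29, 2.90 and 2.81 CPM, against 119, 123 and 134 CPM in ME034V. *Sevir.1G214100* (chromosome 1 from 28795416 to 28799991) had no count in ME034V, against 93.0, 98.7, 89.1 and 80.0 CPM in A.10, at least 1090-fold lower. *Sevir.7G068200* (chromosome 7 from 15408764 to 15409929) had no count in ME034V either, against 76.0, 88.8, 78.7 and 91.2 CPM in A.10, at least 1010-fold lower. The files give these loci no gene name. They were ranked among the called loci that averaged 10 CPM or more in the higher ecotype and did not overlap, 814 higher and 1171 lower in ME034V.

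More loci were without counts in ME034V than in A.10. No count in any of the 4 ME034V libraries but at least 10 CPM on average in A.10 was seen at 34 loci, and the reverse at 12. Of the 34, 8 had no count in the 12 later ME034V libraries and 20 had at most 3, while 14 had more. Of the 12, 1 had no count in the 12 later A.10 libraries and 8 had at most 3, while 4 had more. Reads of both ecotypes were mapped to 1 genome sequence and counted only where they mapped once. A transcript that is not made, a gene that is missing and reads that do not match this sequence cannot be told apart from counts. Whether this sequence matches reads of A.10 better than those of ME034V was not tested. The 34 and 12 loci, and the numbers of loci lower and higher in ME034V, may therefore not be an even comparison of the ecotypes.

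The called loci were not spread evenly over the 9 chromosomes. On chromosome 8, 33.2% of 1237 tested loci were called, 186 higher and 225 lower in ME034V, against 13.1% to 20.6% on the other 8 chromosomes. Differences of at least 4-fold were called at 15.5% of its tested loci, against 2.24% to 6.12% elsewhere. The same chromosome stood out at the later stages, with 30.8% called at anthesis, 34.2% at 8 DAA and 33.9% at 16 DAA, against 12.5% to 24.1% elsewhere. Fewer of its annotated loci were expressed enough to be tested (41.5%, against 53.2% to 62.8%), and their median level was lower (12.2 CPM, against 15.8 to 19.9 CPM). The part of these values in the share was not tested.

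Some called loci were neighbours. Of those higher in ME034V 208 (11.5%) lay in 59 runs of 3 or more neighbouring tested loci called the same way, and of those lower 252 (12.8%) lay in 66 runs. The longest runs had 8 loci. One on chromosome 2, from 4526761 to 4587991, summed to 14.1 CPM in ME034V and 169 CPM in A.10. One on chromosome 5, from 26669686 to 26718884, summed to 698 CPM in ME034V and 183 CPM in A.10, and one on chromosome 8, from 40566077 to 40680590, to 61.6 CPM in ME034V and 14.2 CPM in A.10. Of 46 runs of 4 or more loci 15 were on chromosome 8. In other stretches a whole group of neighbours was near absent from one ecotype. A run of 6 on chromosome 1, from 30995980 to 31128793, summed to 6.56 CPM in ME034V and 135 CPM in A.10, and a run of 6 on chromosome 8, from 40376471 to 40437103, to 120 CPM in ME034V and 1.94 CPM in A.10.

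**Figure D5:**
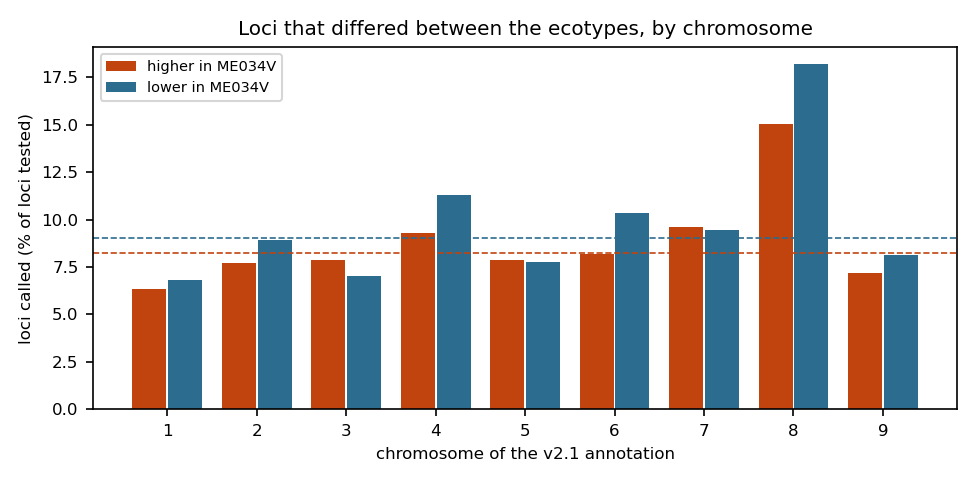
Share of tested loci called (y axis, %) on each of the 9 chromosomes (x axis), with loci higher in ME034V in orange left of those lower in ME034V in blue; dashed lines are the shares over all loci, 8.25% and 9%. Chromosome 8 has 15.04% higher and 18.2% lower, above every other chromosome in both directions.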

How the data were processed

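The authors extracted RNA from snap-frozen whole heads, prepared poly(A) libraries with an unstranded kit and sequenced paired reads of 125 bp. Reads were trimmed with Trim Galore, aligned with Subjunc (Subread 1.6.2), kept where they mapped uniquely, and counted with featureCounts (1.5.0-p1 per the file headers) over the 38334 loci annotated in *S. viridis* v2.1. The deposited counts are raw read counts per locus, with no normalization by the authors. Their FPKM tables, normalized for each ecotype apart, were not used. FPKM given here were computed from the counts, with the length of the locus from start to end, introns included.

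Counts of the 8 libraries at 50% SH were scaled together by TMM and tested with edgeR 4.0.16 in R 4.3.3 (glmQLFit and glmQLFTest, 1 mean per ecotype), for loci that 3 or more libraries held at CPM above 1 and with Benjamini-Hochberg adjustment at 0.05. The study states TMM scaling and this filter and no test between ecotypes. The SE was taken from the F statistic (the change over the root of F), and 95% intervals are 1.96 SE to each side. Later stages were fitted likewise on 8 libraries each, and differences between stages on all 32 with the same filter. On counts simulated for this comparison with 200 loci changed, edgeR recovered 80% at a log2 fold change of 1 and 93% at 2, with 14 false calls among 21960 loci. The simulation had no library that stood apart and far fewer changed loci than the 3787 called in the data. It checks that the test runs as meant and does not give its error rate in these data. At equal totals of 4557079 the counts were thinned without replacement. Alternatives were a DESeq2 fit (1.42.0), DESeq2 scaling within edgeR, other filters, a replicate block, a joint fit, thinned counts, glmTreat with a log2 limit of 1, leaving out each library, and, added after seeing the data, leaving out or modelling the 3 deepest libraries.

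Named genes are, in each family, the called members with the largest rise and fall and the member of highest mean CPM, all called SWEETs and SUTs, genes the study's text names, both qPCR reference genes, listed genes that differ between stages, and the 2 largest rises and 2 largest falls among all loci. Other members named were chosen after their values were seen. The comparison and the lists were chosen with earlier results of these data known. Replicates were treated as separate pools, and no 2 of them agreed within sampling noise. No identifier matched a name in the RefSeq gene table used here (0 paired), and no sequence was analysed.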

Additional observations from a re-analysis of the deposited data

Results flagged for a closer look

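In ME034V replicate 1, 4 named genes lay far from the other 3 ME034V libraries: *SvNIP1;1* at 322 CPM, *SvPIP2;1* at 554 CPM, *SvPIP1;1* at 193 CPM and the starch branching enzyme *Sevir.7G096400* at 312 CPM, the last above and the first 3 below the rest. In A.10, *Sevir.2G161600* had 0.23 CPM in replicate 3 and none elsewhere, and *SvSIP1;2* had 37.6 CPM in replicate 1, against 33.2 to 33.9 CPM in the other A.10 libraries. These are 6 of 112 groups of 4 tested with Dixon's criterion at 95%, and chance flags about 1 in 20.

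The ecotype difference at 50% SH differed from the mean of the later stages for 11 listed genes (edgeR adjusted p under 0.05 over all loci), with log2 differences between stages of -2.33 for *SvNIP4;1*, -2.14 for *Sevir.4G181700*, -2.11 for *Sevir.1G112300*, -1.70 for *SvTIP2;1*, -1.69 for *SvPIP2;7*, -1.30 for *SvTIP4;1*, -0.91 for *SvPIP1;5*, -0.74 for *SvPIP2;1*, -0.70 for *SvPIP1;1*, -0.67 for *SvNIP3;1* and 1.62 for *SvTIP4;3*.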

How the results depend on the processing

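Of 40 named genes that passed, 24 passed in every setting in which they were tested, with glmTreat left out of this count. Low genes were not tested in all 17 settings, and *Sevir.7G099400* was tested in 12. The call was lost in at least 1 setting for 16 genes, and none turned round. Of 31 that did not pass 13 passed in at least 1 setting. A stricter filter, CPM above 5 in 4 or more libraries, tests fewer loci and called 2439 loci (1127 higher, 1312 lower). glmTreat with a log2 limit of 1 called 1082 (499 higher, 583 lower), with 5 listed genes higher and 2 lower, 0 aquaporins lower, 2 glucosidases higher and 1 lower, and chromosome 8 at 3.53 times the share of all loci. Without filter 4334 loci were called and with DESeq2 3713. The joint fit called 5 glucosidases lower. Leaving out 1 library gave 2837 to 5901 loci (1401 to 2969 higher, 1397 to 2932 lower), 12 to 21 listed genes higher and 17 to 41 lower, 0 to 1 aquaporins higher and 623 to 826 loci that differ between stages; 5901, 21, 41 and 1 came without ME034V replicate 1 and 623 without A.10 replicate 1. Without the 3 deepest libraries 21 listed genes and 1 aquaporin were higher, and 329 loci and 3 aquaporins differed between stages. Against anthesis alone 30 loci and 0 aquaporins did. The cause was not tested. Same-numbered replicates of the ecotypes deviated together with correlations of 0.04, -0.09, 0.03 and 0.24, and not every library correlated best with its own number. The main fit therefore assumed no pairing by number, though so few correlations cannot exclude one. With the replicate block 3429 loci were called, 14 listed genes higher and 23 lower, and 7 aquaporins lower. Genes that did not pass and changed sign were all near 0. *SvSWEET13a* had 0.017 with DESeq2, 0.0096 with the stricter filter, 0.036 with the replicate block, 0.0096 in the joint fit, 0.20 in thinned counts, 0.39 without the 3 deepest libraries and 0.20 with a term for them. Without the 3 deepest libraries *Sevir.1G004700* had 0.29, *Sevir.1G121800* 0.013, *SvSIP1;2* 0.13, *SvNIP4;1* 0.10, *SvSUT1* 0.041 and *SvTIP1;1* 0.12. With a term for them *SvPIP1;2* had -0.028. *SvTIP1;1* had 0.0013 with the stricter filter and 0.0060 in the joint fit, *SvSIP1;2* 0.0054 in the joint fit and *Sevir.5G004100* 0.00067 in thinned counts. Leaving out 1 library gave -0.18 to 0.074 for *Sevir.1G004700*, -0.0087 to 0.16 for *SvPIP1;2*, -0.0023 to 0.20 for *Sevir.2G118600*, -0.22 to 0.0046 for *SvPIP2;1*, -0.054 to 0.078 for *SvSIP1;2*, -0.13 to 0.15 for *SvSWEET13a*, -0.060 to 0.025 for *Sevir.5G004100*, -0.23 to 0.029 for *SvTIP4;1*, -0.22 to 0.033 for *SvNIP4;1* and -0.15 to 0.25 for *SvTIP1;1*. At the smallest total 3 counts are 0.66 CPM, so differences of loci below about this level were not detectable.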
